A study of Mus musculus with 8 samples.

Results

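Genes of cholesterol esterification and efflux, 10 in number, were followed in liver RNA-seq of db/db mice. Soat2 was chosen because its level differed between the groups compared below, and Soat1, Lcat, Lipa, Abcg5, Abcg8, Abca1, Scarb1, Npc1 and Lipc were placed beside it as genes of the same pathway. They are 10 of the 41388 features counted, and 10 of 10 passed the filter on low counts that left 12270 genes. The mice lack a working leptin receptor, carry the strain label C57B/6J, were littermates randomised at 5 weeks and were 10 weeks old at sampling. An adenovirus given through the tail vein encoded GFP in 4 mice (AdGFP) and the NAD-salvage enzyme NAMPT in 4 mice (AdNAMPT), with overexpression for 4 to 5 weeks. The genotype label reads control for AdGFP and NAMPT overexpression for AdNAMPT, while db/db comes from the titles. All 8 mice thus shared the db/db background and an adenovirus, and no library came from a lean or a virus-free mouse. The study calls the overexpression hepatocyte-specific, and the promoter of the transgene is not given in the sources used here.

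Cells store surplus cholesterol as fatty acyl esters. In the endoplasmic reticulum the esters are made by the sterol O-acyltransferases, of which SOAT2 is the form of hepatocytes and enterocytes and SOAT1 that of macrophages and most other cells, and in plasma by LCAT. Lysosomal acid lipase, the product of Lipa, hydrolyses esters taken up with lipoproteins, and NPC1 lets the freed sterol leave the lysosome. ABCG5 and ABCG8 pair up to move sterol into bile, ABCA1 passes it to apolipoprotein A-I to form HDL, SCARB1 takes cholesterol back from HDL, and hepatic lipase, the product of Lipc, trims HDL and remnant particles.

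Depth was 12006713 to 19879814 counts a library. The detection floor of 3 counts thus stood at 0.151 to 0.250 CPM, the deposited counts divided by the library's total and scaled to 1e+06. All 6 hepatocyte markers were present in every library, at a summed 96561 to 133370 TMM-scaled CPM, the scale of the levels that follow. Nampt itself ranged from 107 to 159.5 CPM in AdGFP and from 120.3 to 172 CPM in AdNAMPT, with a log2 fold change of 0.08 (SE 0.15), so the transferred gene did not mark the groups apart and AdNAMPT means the libraries so labelled. Vector and endogenous transcripts were not separated. Gm42418, a locus overlapping ribosomal RNA, took 0.996% to 2.25% of counts in AdGFP and 0.200% to 0.233% in AdNAMPT. Mitochondrial ribosomal RNA, left out of the fit, took 1.77% to 2.56% in AdGFP and 0.863% to 1.62% in AdNAMPT. The TMM scaling factors were 0.947 to 0.977 in AdGFP and 1.01 to 1.05 in AdNAMPT, so they too differed by group without overlap. AdNAMPT replicate 1 stood apart from its group and had the lowest sample weight in the fit, 0.440, against 0.811 to 1.41 in the others. In bulk liver, fewer cells of a type and less RNA per cell cannot be told apart.

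The 10 genes spanned a wide range of levels. Per kilobase of exon and after TMM scaling, the mean over all 8 libraries was 250.1 CPM for Lcat, 81.9 for Lipc, 76.2 for Lipa, 39.3 for Abcg5, 26.0 for Abca1, 23.2 for Abcg8, 18.8 for Scarb1, 11.6 for Npc1, 9.40 for Soat2 and 0.596 for Soat1. Neighbours in this order were compared within each library by a two-sided exact permutation test over sign flips, with Benjamini-Hochberg adjustment over the 9 pairs. Of these, 7 pairs differed, with adjusted p between 0.0141 and 0.0402, and the smallest p the test can give before adjustment is 0.00781. The order and its tests rest on the exon length of each gene, from 1342 bases for Lcat to 10725 for Npc1. The pairs with Soat2 hold the group difference for which it was chosen, so their p are descriptions. Lipc and Lipa did not differ beyond their spread (mean log2 difference 0.10, SD 0.41, higher in 5 of 8 libraries, exact permutation p = 0.484). Abca1 and Abcg8 did not either (0.17, SD 0.23, 5 of 8 libraries, exact permutation p = 0.0781). By group, Abca1 exceeded Abcg8 by 0.04 (SD 0.28), in 1 of 4 libraries, in AdGFP and by 0.30 (SD 0.07), in 4 of 4, in AdNAMPT, and the difference between the groups was not tested.

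Both ends of the order were set by secreted and intracellular esterifying enzymes. Lcat, the plasma enzyme, exceeded Lipc, the next gene, by 1.63 on the log2 scale (SD 0.26), in 8 of 8 libraries. Soat2 exceeded Soat1, the last, by 3.92 (SD 0.43), a 15.1-fold difference per kilobase seen in 8 of 8 libraries. Before division by exon length, 2218 bases for Soat2 and 9791 for Soat1, their means over all libraries were 20.8 and 5.84 CPM. The part of annotated exon length in this difference was not tested. Npc1 exceeded Soat2 by 0.33 (SD 0.30; adjusted p 0.0402 by the exact permutation test). The 8 libraries pooled in that test hold the group difference for which Soat2 was chosen, so its p is a description. The gap of Npc1 over Soat2 was 0.54 in AdGFP, where Npc1 was the higher in 4 of 4 libraries, and 0.12 in AdNAMPT, where it was the higher in 2 of 4. Within a group of 4 libraries the test cannot go below 0.125, so these values stand without a test.

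**Figure D1:**
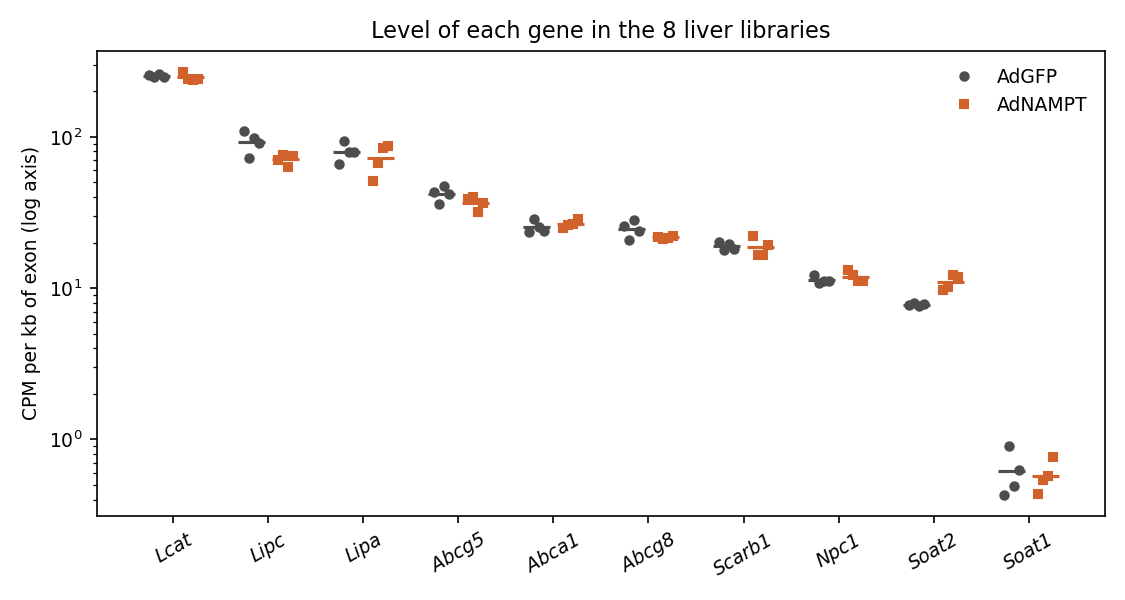
Level of each of the 10 genes in CPM per kilobase of exon on a log axis, with 1 point per library (circles AdGFP, squares AdNAMPT, n = 4 each) and a line at each group's mean. Levels run from 250.1 for Lcat to 0.596 for Soat1. Soat2, chosen for its group difference, is the only one of the 10 whose groups do not overlap, where this held for 4.79% of all 12270 tested genes.

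Soat2 (ENSMUSG00000023045; GRCm38 chromosome 15, 102150526 to 102163474, plus strand, 2218 exon bases) esterifies cholesterol for storage and for packing into VLDL. It was at 17.3, 17.7, 16.8 and 17.3 TMM-scaled CPM in AdGFP replicates 1 to 4. It was at 21.4, 22.6, 27.2 and 26.4 CPM in AdNAMPT replicates 1 to 4. Every AdNAMPT library lay above every AdGFP library, and within AdNAMPT replicates 3 and 4 were the higher ones. The group means were 17.3 ± 0.379 and 24.4 ± 2.82 CPM (SD over 4 mice). AdNAMPT was higher by 0.52 on the log2 scale (SE 0.09), or 1.43-fold with a 95% confidence interval of 1.25 to 1.63. This is the difference for which Soat2 was chosen, so it is given as a description and without a test.

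The AdGFP libraries spread less in Soat2 than the counting error of 1 library. Their coefficient of variation was 2.19%, whereas the counting error of 227 to 269 reads corresponds to 6.45%. Among the 12270 tested genes, of all count levels, 1.53% had an AdGFP coefficient of variation this small or smaller, and the median gene had 10.7%. In AdNAMPT the coefficient of variation was 11.6%, above a counting error of 5.08%. The narrow AdGFP spread, noticed after the values were seen, is thus smaller than the counting error of 1 library, and the interval above rests on limma's pooling of spread across genes. A choice by group difference favours genes with a small spread within groups, so nothing is read from this rank. Whether counting alone can give so small a spread over 4 libraries was not tested.

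The size of the Soat2 difference depended little on how the data were treated, while its side of the threshold moved. Its log2 fold change was positive in 18 of 18 alternative fits, from 0.42 without AdNAMPT replicate 3 to 0.61 without AdNAMPT replicate 2. Limma placed it under an adjusted p of 0.05, as did 7 of the 18 alternatives. It was not under 0.05 by the edgeR quasi-likelihood test, by voom without sample weights, without the filter on low counts, with thinned counts or with the replicate block. Nor was it without any 1 of the 4 AdGFP libraries or without AdNAMPT replicate 3 or 4. All of these fits use the contrast on which Soat2 was chosen, so they describe the processing and are no test of the difference.

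Soat1 (ENSMUSG00000026600; chromosome 1, 156424525 to 156474331, minus strand) had the fewest reads of the 10 genes, 53 to 127 a library. Its coefficient of variation was 34.5% in AdGFP and 23.8% in AdNAMPT, above the counting errors of 10.99% and 10.5%. It was at 4.23, 8.89, 4.81 and 6.18 CPM in AdGFP and at 4.27, 5.25, 5.59 and 7.48 CPM in AdNAMPT. AdGFP replicate 2 was the highest of all 8, and the groups overlapped throughout. The weighted fit gave a log2 fold change of 0.07 (SE 0.22) although the plain mean was lower in AdNAMPT (5.65 ± 1.34 against 6.03 ± 2.08 CPM), and 10 of 18 alternatives turned its direction. No direction can be given for Soat1.

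The enzymes encoded by Soat1 and Soat2 catalyse the same reaction, so the reads of one could in principle be credited to the other. At the read length of 50 bases, 0 windows were shared between them: 71 of 9875 windows of Soat1 transcripts and 17 of 2253 of Soat2 transcripts also occurred in other genes, neither in its paralogue. The longest exact run the transcripts have in common, shown because it bears on whether the paralogues can be told apart, is 16 bases, at positions 753 to 768 of a Soat1 transcript and 620 to 635 of a Soat2 transcript (GENCODE M21):
Soat1 and Soat2, shared run: ccatgttcctgtctac
It is far shorter than a read. The ratio of Soat2 to Soat1, both per kilobase, was 13.7 ± 3.98 in AdGFP (range 8.79 to 18.03) and 19.5 ± 2.98 in AdNAMPT (15.6 to 22.2), and the ranges overlapped.

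**Figure D2:**
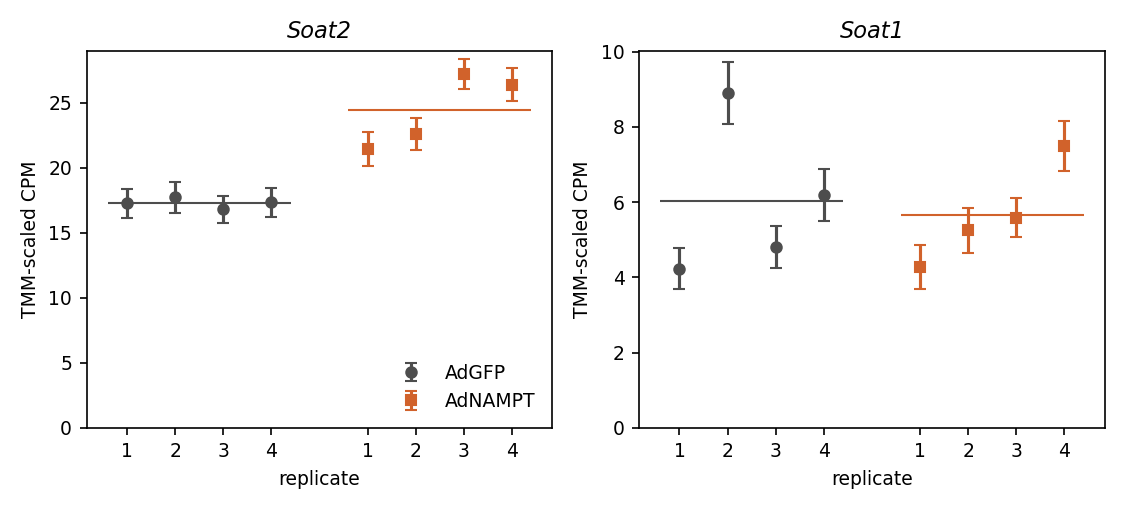
Soat2 (left) and Soat1 (right) in TMM-scaled CPM in each library, with bars of 1 SD of read counting alone and lines at the group means. The 4 AdGFP points of Soat2 lie between 16.8 and 17.7, closer together than their bars, whereas Soat1 is spread from 4.23 to 8.89 with the groups overlapping.

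Soat1 is the macrophage form, so it was set beside the summed level of 8 Kupffer cell markers. That sum ranged from 297 to 372 CPM in AdGFP and from 201 to 343 CPM in AdNAMPT, with all 8 markers over the floor in every library. Over the 8 libraries Pearson's r with Soat1 was 0.51 (permutation p = 0.187) and Spearman's rho 0.43 (permutation p = 0.299). This was 1 of 3 relations computed, and the adjusted p was 0.278 for r and 0.428 for rho by exact permutation. Within groups r was 0.28 in AdGFP and 0.92 in AdNAMPT, over 4 libraries each, and without the pair of libraries farthest from the median marker level it was 0.31. The relation was thus not established at this number of libraries.

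Lcat (ENSMUSG00000035237; chromosome 8, 105939551 to 105943382, minus strand) esterifies cholesterol on HDL in plasma. It was at 343, 335, 350.3 and 333 CPM in AdGFP and at 360.5, 323, 318 and 322 CPM in AdNAMPT. AdNAMPT replicates 2, 3 and 4 lay under the whole AdGFP range and replicate 1 lay above it. The log2 fold change was -0.06 (SE 0.07), and its sign turned when counts were scaled by library size alone (0.02).

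Npc1 (ENSMUSG00000024413; chromosome 18, 12189693 to 12236400, minus strand) was at 132, 115, 119 and 119.5 CPM in AdGFP and at 142, 130.4, 119.6 and 119 CPM in AdNAMPT. Its highest library was AdNAMPT replicate 1, and the log2 fold change was 0.05 (SE 0.07). Of the exon bases of Npc1, 7.69% lie opposite exons of Rmc1 on the other strand, and whether the counting used strand is not stated.

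Lipa (ENSMUSG00000024781; chromosome 19, 34492318 to 34527474, minus strand) was at 198, 277, 235 and 237 CPM in AdGFP and at 153, 199.8, 252 and 259 CPM in AdNAMPT. AdNAMPT replicate 1 was the lowest library and AdGFP replicate 2 the highest, and the groups overlapped. AdNAMPT replicate 1 also had the lowest Kupffer marker sum and AdGFP replicate 2 the highest, and the part of macrophages in Lipa was not tested. Its log2 fold change of -0.08 (SE 0.14) became 0.03 without AdNAMPT replicate 1 and 0.04 without AdNAMPT replicate 2. Across the 8 libraries Npc1 and Lipa, which act one after the other in the lysosome, had the most negative Pearson's r of the 45 pairs among the 10 genes, -0.98. All pairs share libraries and scaling, so this r is a description.

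Abcg5 (ENSMUSG00000040505; chromosome 17, 84658234 to 84683011, minus strand) and Abcg8 (ENSMUSG00000024254; chromosome 17, 84676302 to 84700333, plus strand) encode the subunits of 1 sterol transporter and are read from opposite strands. The first exons of their main transcripts are 109 bases apart. The whole stretch between them is shown because both genes start at its edges, Abcg5 to its left and Abcg8 to its right. It lies at chr17:84683012-84683120 (RefSeq promoter table, GRCm38.p6, plus strand), outside every exon and inside an intron of a longer Abcg8 transcript. Capitals mark the matches found among the motifs searched:
Abcg5 to Abcg8 stretch: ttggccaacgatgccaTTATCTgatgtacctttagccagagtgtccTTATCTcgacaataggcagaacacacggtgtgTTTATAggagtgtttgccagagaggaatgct
TTATCT is the GATA-box letters AGATAA read on the minus strand, and it occurs at bases 17 to 22 and 47 to 52. TTTATA is TATAAA on the minus strand and occurs once, its first printed base 79 bases before the start of Abcg5 and 31 bases before that of Abcg8. AGATAA was present on either strand in 3.98%, and TATAAA in 5.90%, of the 32851 promoter windows of the same 109 bases. No match was found for TGATAA (in 3.02% of windows), AGGTCA (6.39%), CAAGGTCA (0.487%), AGGTCA repeated in the same direction after 4 bases of any kind (0.0122%), CCAAT (20.1%), GGGCGG (25.6%) or CACGTG (3.38%). AGGTCA is contained in both longer nuclear receptor motifs. These matches are letters in a window and not measured binding sites.

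Abcg5 was at 117, 97.2, 128 and 114 CPM in AdGFP and at 105, 108, 86.6 and 98.5 CPM in AdNAMPT. Abcg8 was at 97.1, 78.0, 106 and 89.8 CPM in AdGFP and at 81.0, 79.5, 80.3 and 83.2 CPM in AdNAMPT. AdGFP replicate 3 was the highest and replicate 2 among the lowest for both genes, and replicate 2 is what made the groups overlap. Abcg8 was nearly constant in AdNAMPT, with a coefficient of variation of 1.99% against a counting error of 2.81%, while in AdGFP it varied by 12.7%. The log2 fold change was -0.21 for each gene (SE 0.10 for Abcg5 and 0.09 for Abcg8), and 18 of 18 alternatives were negative for both.

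The pair was compared across libraries as 1 of the 3 relations. Pearson's r was 0.83 over 8 libraries (exact permutation p = 0.00766, adjusted 0.0230) and Spearman's rho 0.79 (exact permutation p = 0.0279, adjusted 0.0838). Within groups r was 0.99 over the 4 AdGFP libraries and -0.11 over the 4 AdNAMPT libraries; the difference between the groups was not tested. With each group centred, r was 0.73 (permutation p = 0.0694), and without AdNAMPT replicate 3 and AdGFP replicate 3, the libraries farthest from the median of Abcg5, it was 0.81 (exact permutation p = 0.0542). Without AdGFP replicate 3 alone it was 0.70 (exact permutation p = 0.0821). These 3 values of r kept their sign but did not pass 0.05. Per kilobase the ratio of Abcg5 to Abcg8 kept to 1.49 to 1.87 in all 8 libraries, with a mean of 1.70 in both groups. The genes have 162 exon bases on opposite strands in common (5.97% of Abcg5 and 4.32% of Abcg8), which the authors' unambiguous counting would leave out or assign by strand.

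**Figure D3:**
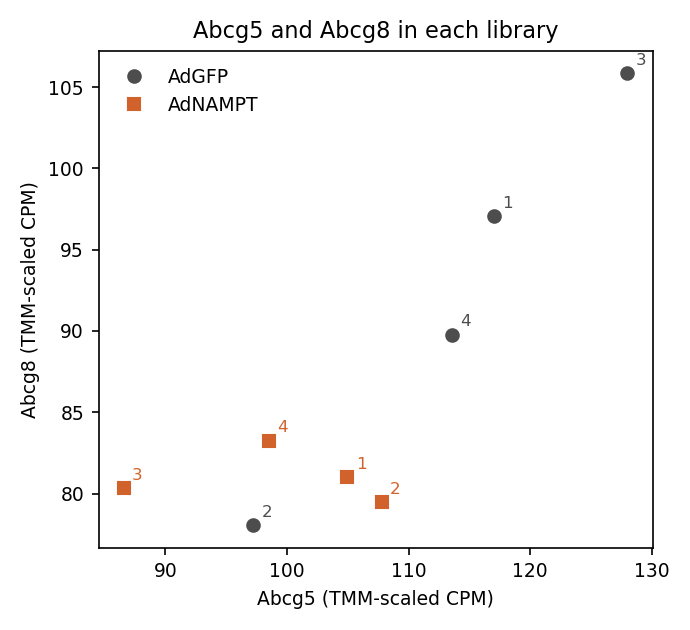
Abcg8 against Abcg5 in TMM-scaled CPM, 1 point per library with its replicate number (circles AdGFP, squares AdNAMPT). The AdGFP libraries lie along a line from replicate 2 to replicate 3 (r = 0.99), while the AdNAMPT libraries stay between 79.5 and 83.2 CPM of Abcg8 over 86.6 to 108 CPM of Abcg5.

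Abca1 (ENSMUSG00000015243; chromosome 4, 53030787 to 53159895, minus strand) was at 243, 296, 265 and 248 CPM in AdGFP and at 257, 271, 277 and 296 CPM in AdNAMPT. The top library of each group was nearly equal, and the log2 fold change was 0.10 (SE 0.08). Abca1 and Abcg1, both known targets of the LXR receptors, had r = 0.43 across the 8 libraries (exact permutation p = 0.278, adjusted 0.278) and rho = 0.33 (exact permutation p = 0.428, adjusted 0.428). Within groups r was 0.47 in AdGFP and 0.67 in AdNAMPT, over 4 libraries each, and without the pair farthest from the median of Abca1 it was 0.20. Without AdGFP replicate 4 it rose to 0.82 (exact permutation p = 0.0252), so 1 library decided the call.

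Scarb1 (ENSMUSG00000037936; chromosome 5, 125277087 to 125341094, minus strand) was at 127, 112, 124 and 114 CPM in AdGFP and at 139.6, 104, 105 and 121 CPM in AdNAMPT. AdNAMPT replicate 1 was the highest library, as it was for Lcat and Npc1, and 2 AdNAMPT libraries lay under the AdGFP range. The log2 fold change was -0.09 (SE 0.09).

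Lipc (ENSMUSG00000032207; chromosome 9, 70798129 to 70934808, minus strand) was at 211, 139, 189 and 176 CPM in AdGFP. It was at 135, 146, 121 and 143 CPM in AdNAMPT. The groups overlapped only through AdGFP replicate 2, which lay within the AdNAMPT range while the other AdGFP libraries lay above it. The log2 fold change was -0.40 (SE 0.12), a level 0.757 times that of AdGFP with a 95% confidence interval of 0.633 to 0.904, and it was negative in 18 of 18 alternatives. The limma adjusted p was 0.357, with 0.0985 to 0.615 over the alternatives, so Lipc was not called in any of them. AdGFP replicate 2, low in Lipc, was also low in Abcg5 and Abcg8. Over the 8 libraries r was 0.88 between Lipc and Abcg5 and 0.87 between Lipc and Abcg8, the highest of the 45 pairs. These genes were all lower in AdNAMPT, so these r values hold the group difference and are descriptions. With each group centred they were 0.81 and 0.78, and Lcat with Scarb1 was then the highest pair at 0.87.

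**Figure D4:**
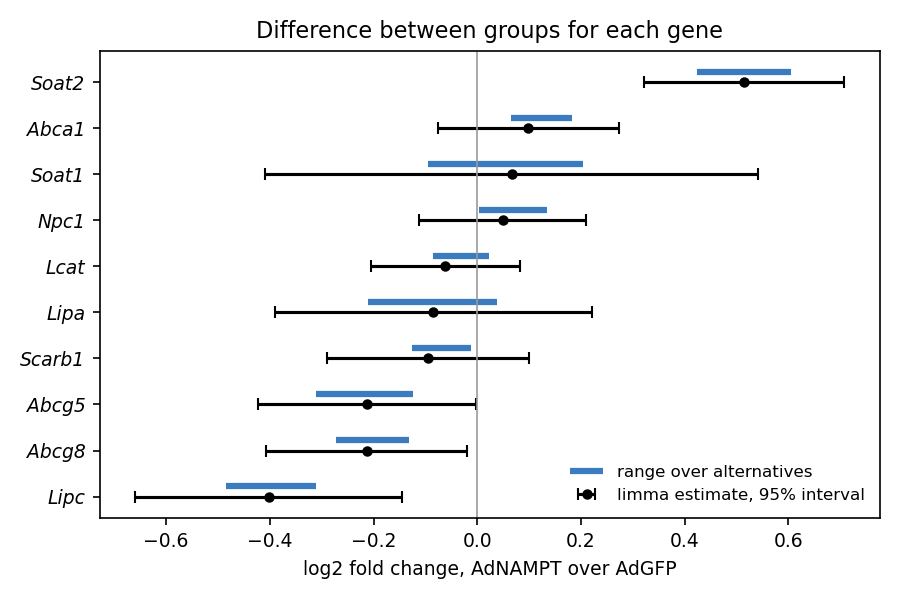
Log2 fold change of AdNAMPT over AdGFP for each gene, with limma's 95% confidence interval (black) and the range over the 18 alternative fits (blue). Soat2 lies at 0.52 and Lipc at -0.40, and the blue ranges of Soat1, Lcat and Lipa cross 0, that of Lcat only with scaling by library size alone.

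In the contrast of the groups, 4 of the 10 genes were higher and 6 lower, with a median log2 fold change of -0.07 against 0.0015 for all 12270 genes. With library size alone as the scaling, which shifts the median of all genes to 0.09, the split was 5 and 5. Limma called 1 of the 10, Soat2, which was higher. Of all tested genes 0.277% were called and 0.0163% were called higher (34 genes, 2 higher and 32 lower, or 8 higher and 31 lower with scaling by library size alone). Of the other 9, 0 were called by limma, by either edgeR test or by DESeq2, and 3 had an unadjusted limma p under 0.05 (Lipc, Abcg8 and Abcg5, all lower), where 9.69% of all genes did. By the edgeR quasi-likelihood test, the edgeR exact test and DESeq2 this was 1 of the 9, beside 982, 822 and 840 of all 12270 genes. The groups did not overlap for 1 of the 10 genes, where this held for 4.79% of all genes, 2.09% higher and 2.7% lower. As Soat2 was chosen on this contrast, nothing is read from these counts.

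Other genes of the pathway were taken from lists chosen with earlier results known. Limma called 0 genes in any of the 7 lists, and the counts at an unadjusted p under 0.05, for which the background was 4.65% higher and 5.04% lower, are given for each. Of 12 other genes of cholesteryl ester synthesis and hydrolysis, 11 were tested, 3 were higher and 8 lower, and 0 and 2 had such a p, with a median of -0.15. The largest fall was in Ces1b, a carboxylesterase, at 20.7, 21.0, 17.3 and 19.2 CPM in AdGFP and 16.5, 15.0, 11.7 and 11.5 CPM in AdNAMPT. Its groups did not overlap, and limma estimated -0.55 on the log2 scale (SE 0.12, adjusted p 0.154). The Ces1 genes are close paralogues, so their unique counts are less certain. Ces1e had the most positive value, 0.15 (SE 0.19). Nceh1, the neutral ester hydrolase, was at 0.12 (SE 0.09), and Cel did not pass the filter.

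Among 17 genes of lysosomal and intracellular sterol transport, 9 were higher and 8 lower, with 0 at an unadjusted p under 0.05 and a median of 0.0076. Values ran from -0.20 (SE 0.11) for Stard4, a soluble sterol carrier, to 0.19 (SE 0.11) for Scp2, the peroxisomal sterol carrier protein. Scaling by library size alone turned the split to 14 higher and 3 lower, so the directions within this list are not settled.

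Of 12 genes of lipoprotein uptake, 11 were tested, 5 higher and 6 lower (9 and 2 with library size alone), with 0 and 1 at an unadjusted p under 0.05. Sdc1, a heparan sulphate proteoglycan that binds remnants, had -0.28 (SE 0.10; limma adjusted p 0.440). Npc1l1, the sterol importer that works against ABCG5 and ABCG8, had at most 0.118 CPM, under the floor.

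Among 15 LXR receptors and target genes, 11 were higher and 4 lower, with 0 at an unadjusted p under 0.05 and a median of 0.08. With scaling by library size alone 15 were higher. The list left out the sterol exporters followed above, Abca1, Abcg5 and Abcg8, so the split does not cover them. Abca1 was higher, at 0.10 (SE 0.08), whereas Abcg5 and Abcg8 were lower, at -0.21 each (SE 0.10 and 0.09). With library size alone Abca1 was at 0.18, and Abcg5 and Abcg8 stayed lower, at -0.13 each. Nr1h3, which encodes LXRα, had -0.06 (SE 0.07), and Scd1, the stearoyl-CoA desaturase that supplies oleate for esterification, 1.29 with an SE of 0.65. Of 11 genes of HDL and its remodelling, 7 were higher and 4 lower, with 0 and 2 at an unadjusted p under 0.05. Pltp, the phospholipid transfer protein, had 0.94 (SE 0.45), and Saa4, an HDL apolipoprotein, -0.37 (SE 0.10; limma adjusted p 0.290). Of 13 genes of SREBP2 and sterol sensing, 6 were higher and 7 lower (8 and 5 with library size alone), with 0 at an unadjusted p under 0.05. The lowest value was -0.32 (SE 0.33) for Hmgcs1, which makes HMG-CoA, and it ranged from 89.7 to 453 CPM within AdNAMPT.

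**Figure D5:**
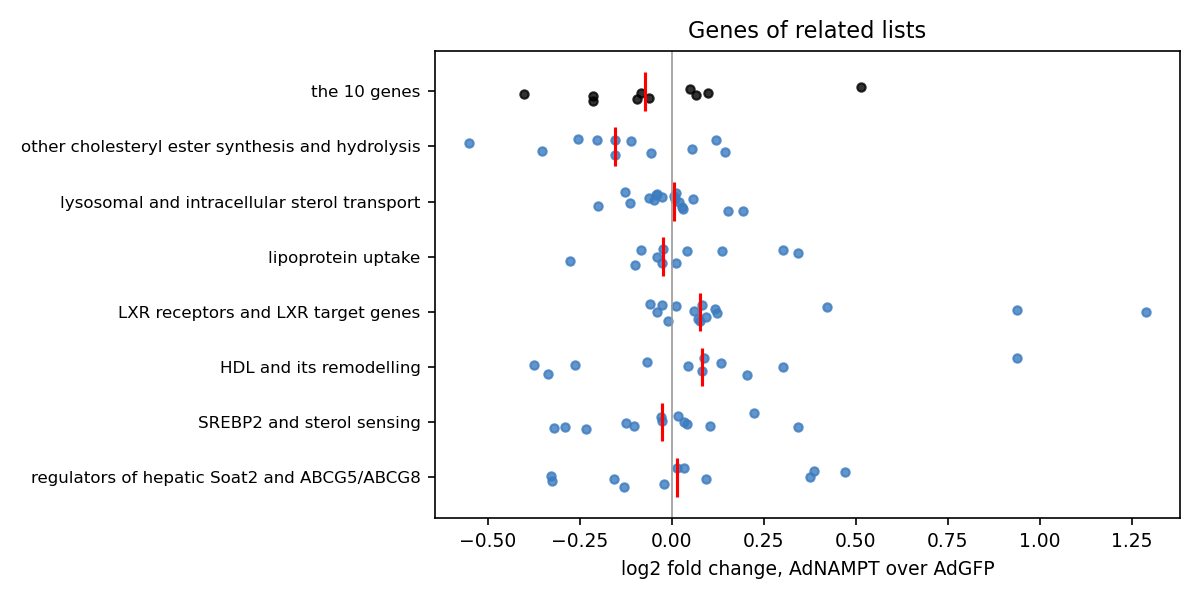
Log2 fold change of AdNAMPT over AdGFP for the 10 genes (black) and for the tested genes of the 7 lists (blue, 1 point per gene, spread vertically for sight), with a red line at each median. Medians lie between -0.15 and 0.08, and the Soat2 point at 0.52 is the highest of the 10 genes. The split into higher and lower moves with scaling by library size alone.

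Of 12 transcription factors listed as regulators of Soat2 or of the Abcg5 and Abcg8 pair, 11 were tested, 6 higher and 5 lower, with 3 and 1 at an unadjusted p under 0.05. Foxa2 had the most positive value, 0.47 (SE 0.13; limma adjusted p 0.338), and Gata4, whose family binds GATA boxes, 0.39 (SE 0.13; limma adjusted p 0.412). Nr0b2, the repressor SHP, had the most negative, -0.33 (SE 0.11; limma adjusted p 0.411). Hnf4a had -0.02 (SE 0.13), and Cdx2, the intestinal activator of Soat2, had 0 reads in every library.

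Among the genes whose log2 level followed Soat2 most closely over the 8 libraries were Agtpbp1 (r = 0.97), Timm10b (0.96), Tapbp (0.94) and Parp10 (0.94). These r values hold the group difference for which Soat2 was chosen. With each group centred the nearest were other genes, Esyt2 (0.99), Tcea3 (0.99), Slc25a44 (0.98), Pxdc1 (0.98) and Kctd6 (0.98). Among the 10 genes, centring left Lipa (0.85) as the one closest to Soat2, where over uncentred libraries r between them was 0.05. All are descriptions over 8 libraries that share scaling, picked from 12270 genes.

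Cells other than hepatocytes were measured by their markers beside these results. The summed recruited macrophage and neutrophil markers ranged from 47.7 to 58.3 CPM in AdGFP and from 42.1 to 75.1 CPM in AdNAMPT. The 6 sinusoidal endothelial markers summed to 251 to 282 and 241 to 289 CPM, the 6 stellate cell markers to 337 to 374 and 328 to 392 CPM, and the 6 cholangiocyte markers to 27.9 to 44.1 and 28.6 to 44.4 CPM. All of these ranges overlapped between the groups. The 6 T and B cell markers summed to 0.305 to 0.843 CPM in AdGFP and 0.645 to 1.89 CPM in AdNAMPT, none of them over the floor in all 8 libraries. Of the small intestine, the other site of Soat2, the defining markers Alpi and Cdx2 had 0 reads in every library, and Vil1 had at most 5. Fabp2, Apoa4 and Lgals4, the 3 of the 6 markers over the floor in all 8 libraries, had mean levels of 108, 264 and 7.41 CPM in AdGFP and 126, 307 and 7.46 CPM in AdNAMPT. The 6 markers summed to 331 to 453 CPM in AdGFP and 296 to 573 CPM in AdNAMPT. The part of these cells, and of the Gm42418 and mitochondrial ribosomal RNA differences, in the value of Soat2 was not tested.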

How the data were processed

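Total RNA of liver homogenate was sequenced from 8 mice, each a separate animal by the titles. The labels name Ribo-Zero, whereas oligo-dT beads appear in the study's methods. Per the labels, the authors aligned reads to GRCm38 with STAR 2.4.0b and counted them with featureCounts 1.4.5, uniquely aligned and unambiguous reads only. As deposited, counts are whole numbers of reads for each gene. The deposited CPM are counts scaled to each library's total, and the deposited RPKM are those CPM per kilobase of exon. Both were recomputed from the counts to within 5.09e-11, and RPKM was not used further.

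The 355 ribosomal RNA features and genes not over 1 CPM in at least 3 libraries were left out, as in the study's methods. The remaining 12270 genes were fitted with limma's voomWithQualityWeights after TMM scaling, with group as the only term and Benjamini-Hochberg adjustment over all of them. Changed meant an adjusted p of at most 0.05. Levels are TMM-scaled CPM, divided by kilobases of exon where genes are set side by side. Differences between neighbouring genes within a library are of unscaled counts per kilobase of exon, with 0.5 added before logarithms. Permutation tests are two-sided. Alternatives were the edgeR quasi-likelihood and exact tests, DESeq2, other scalings, filters and thresholds, thinned counts, a replicate block and each library left out in turn. Fitting routines were tested on simulated data. Intervals of counting cover counting error only.

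The 10 genes and all lists were chosen with earlier results of these data known. Beyond the 10, the genes named are each list's largest rise and fall and the 5 most like Soat2, and Nceh1, Gata4, Hnf4a, Cel, Npc1l1 and Cdx2 were named besides for their roles or absence. Some genes that this rule names are not reported here. Symbols came from GENCODE M21, which matched 40340 of 41388 features. RefSeq promoters were held for 7 of the 10 genes. Versions were limma 3.58.1 and edgeR 4.0.16 for fits, DESeq2 1.42.0 for its test, all under R 4.3.3, and scipy 1.17.1, numpy 2.4.6 and pandas 2.3.3 under Python 3.11.15 for permutation tests, with matplotlib 3.10.9 for plots.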

Additional observations from a re-analysis of the deposited data

Results flagged for a closer look

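Lcat in AdNAMPT replicate 1 was set apart from its group. It was at 360.5 CPM, whereas the other AdNAMPT libraries lay between 318 and 323 CPM, a gap of 0.881 of the group's range by Dixon's criterion. Of 36 groups of 4 libraries examined over 18 values, 1 was so marked, and chance marks about 1 in 20, or 1.80 of 36.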

How the results depend on the processing

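The number of genes called was 34 in the main analysis, 75 with DESeq2, 65 with edgeR's exact test, and 28 to 38 with 1 library left out; the cause was not tested. Soat1 turned negative with the edgeR quasi-likelihood test (-0.079), DESeq2 (-0.081), edgeR's exact test (-0.084), voom without sample weights (-0.023), no filter (-0.0046), thinned counts (-0.038) and the replicate block (-0.019), and ranged from -0.094 to 0.20 with 1 library left out. Lcat turned to 0.022 with library size alone, and Lipa ranged from -0.21 to 0.038 with 1 library left out. In AdNAMPT alone, Lipc over Lipa was -0.0099. The pairs of neighbouring levels that differed numbered 6 to 7 with 1 library left out. With 1 library left out, r ranged from 0.70 to 0.91 for Abcg5 and Abcg8, from 0.12 to 0.82 for Abca1 and Abcg1, and from 0.32 to 0.67 for Soat1 and Kupffer markers. For Abcg5 and Abcg8 it was 0.73 with groups centred and 0.81 without the 2 farthest libraries, both with p over 0.05.

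Deviations of same-numbered libraries correlated by -0.05 to 0.23, values too few to decide whether replicate numbers pair the mice. With the replicate block 41 genes were called, and the log2 fold change of Soat2 was 0.54.

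Abcg5, Abcg8 and Lipc did not pass an adjusted p of 0.05 in any of the 18 alternatives.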
